A study of Homo sapiens with 8 samples.

Results

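The genes described here are the subunits of the transcription factor NF-kB and the inhibitors that it induces against itself, in the human line NB4, which came from an acute promyelocytic leukaemia, after knockdown of the cyclin-dependent kinase CDK2. They were chosen by name, with earlier results of these data known: the subunit genes NFKB1, NFKB2, RELA and RELB, and the feedback inhibitor genes NFKBIA, NFKBIE, TNFAIP3, TNIP1, BIRC3 and IER3. Of these 10 genes, 9 were measured among 18132 genes with a probe set of 1 gene, 4 subunits and 5 inhibitors, and BIRC3 was not analysed here. Each gene was read on whichever of its probe sets was brightest on average, and all 9 were among the 12845 genes bright enough to be tested.

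Cells received lentivirus at a multiplicity of infection of 10, carrying either a short hairpin RNA against CDK2 or a scrambled control sequence. The arrays were shCDK2 #1, #3 and #10 at day 5, scramble at day 5, shCDK2 #1, #3 and #10 at day 2, and scramble at day 2, with day 2 described as early and day 5 as late in differentiation. Each of the 8 was a single Affymetrix array made from 6 µg of total RNA, and there was 1 array per construct and day. Signals are log2 values as deposited, so that a difference of 1 is a 2-fold difference, and the level of one gene cannot be set against the level of another. Nothing in the labels says that arrays came from separate cultures, so p-values reflect the spread among these arrays alone, which may be technical. In comparisons within a day or between the days, the 3 hairpins served as repeats of the knockdown. The spread there also holds any difference between the hairpins. In comparisons of single constructs over both days, the 2 days served as repeats. The spread there also holds any difference in how the constructs changed between the days. The deposited values give no count per array, and the number of arrays limits the precision.

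NF-kB is a dimer of Rel-domain proteins held in the cytoplasm by IkB proteins until a signal from receptors such as those for TNF, IL-1 or microbial products activates the IKK kinase, which marks the IkB proteins for destruction. The freed dimer enters the nucleus and switches on inflammatory and survival genes. Among its targets are the genes of its own inhibitors, so the transcripts of IkB proteins and of the A20 (TNFAIP3) complex are commonly read as a record of the pathway's activity, and in myeloid cells the pathway accompanies the inflammatory response of monocytes and macrophages.

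The CDK2 signal did not separate all arrays by their labels. At day 5 it was 7.89 in shCDK2 #1, 7.72 in #3 and 8.08 in #10, against 8.19 in the day 5 array labelled scramble. At day 2 it was 7.78 in #1, 9.03 in the day 2 array labelled shCDK2 #3 and 7.54 in #10, against 9.10 in scramble. Relative to same-day scramble, the CDK2 signal was 92.9% in #10 at day 5 and 95% in the day 2 array labelled shCDK2 #3. All 6 measured promyelocyte markers had means above the test's lower limit of 5.83 log2, with MPO at 13.37 to 14.40 and ELANE at 5.83 to 6.35. PRTN3 ran from 9.76 to 11.18, AZU1 from 8.39 to 10.50, CTSG from 7.97 to 9.74 and MYB from 10.22 to 11.62. PRTN3 and AZU1 were lowest in #10 at day 5, and CTSG in the day 5 array labelled scramble. At day 2 the markers summed to 13.99 log2 in #10, against 14.70 in scramble. At day 5 they summed to 14.34 in #10, against 14.44 in the array labelled scramble. Array medians lay between 6.30 and 6.43 log2.

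Some markers of other cell types also differed between hairpins and days. Of 6 monocyte and macrophage markers, 3 had means above 5.83 log2, and their summed level was 11.78 log2 in #10 and 9.82 in #3 at day 5, against 8.09 in the day 5 array labelled scramble and 7.89 to 8.35 in the other arrays. CD14 had 10.65 and CD163 had 10.27 in #10 at day 5, against 5.15 and 4.86 in the day 5 array labelled scramble, while MRC1 and VCAN stayed under 5 in every array. The summed erythroid and megakaryocyte level was 13.55 in #10 at day 5, through PPBP at 13.48, against 8.72 in the day 5 array labelled scramble. Its other 6 values lay between 8.45 and 9.33. Of 4 measured markers of that kind 3 had means above 5.83 log2, and the mean of PPBP was under it. Lymphoid markers (4 of 5 with means above it) summed to 11.79 in #10 at day 5 and 12.01 in #10 at day 2, and to 10.66 to 11.12 in the #1 and #3 arrays, against 10.80 in the day 5 array labelled scramble and 10.37 in scramble at day 2. CD3D had 10.85 in #10 at day 5, against 8.82 in the day 5 array labelled scramble, and over both days it rose in #10 by 2.25 log2 (SE 0.20, limma adjusted p = 0.0133), a call that ended without scramble at day 2 (0.163) or without the day 5 array labelled scramble (0.187). NKG7 was also higher in #10 at day 5 than in the day 5 array labelled scramble (10.52 against 9.99). The other lymphoid markers were lower there: CD3E (6.00 against 6.37), CD79A (7.25 against 7.67) and MS4A1 (4.10 against 4.51). MS4A1, a B-cell marker, stayed under 5 in every array. Fibroblast and epithelial markers (4 of 6) summed to 8.51 to 8.93 in the hairpin arrays and 8.79 to 8.82 in the scramble arrays. The part of these cell types in the results below was not tested, and in bulk RNA fewer cells of a type and less RNA per cell cannot be told apart.

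Promoter sequence was held for most of these genes, whose transcription by NF-kB itself is the basis of the feedback. The 250 bases before the start sites listed by RefSeq (GRCh38.p14) were searched on both strands for the kB consensus, a 10-base motif of 3 G, a purine, 2 bases of any kind, 2 pyrimidines and 2 C. Windows were held for 6 of the 9 measured genes, with entries missing for RELB, NFKBIE and IER3. A match stood in at least 1 window of 5 of the 6 genes, NFKB1, NFKB2, NFKBIA, TNFAIP3 and TNIP1, and in 6 of their 11 windows. Among all 35116 RefSeq windows 9.96% held a match, and 11.8% of the 27305 genes had one in at least 1 window. Capitals in the lines that follow mark the match, on whichever strand it was found, and sequences run 5′ to 3′ on the strand of the gene. The windows before the outermost starts of NFKB1 (chr4:102501109-102501358, plus strand), NFKBIA (chr14:35404750-35404999, minus strand) and RELA (chr11:65663858-65664107, minus strand) are shown because NFKB1 and NFKBIA were more than 1 log2 above scramble in #3 and #10 at day 5, while RELA varied little and had no match.
NFKB1: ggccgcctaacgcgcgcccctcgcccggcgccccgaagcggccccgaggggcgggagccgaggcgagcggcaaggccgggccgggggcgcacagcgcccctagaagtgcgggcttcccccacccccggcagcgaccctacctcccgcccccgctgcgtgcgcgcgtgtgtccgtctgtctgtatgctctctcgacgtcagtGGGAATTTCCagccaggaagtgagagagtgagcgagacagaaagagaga
NFKBIA: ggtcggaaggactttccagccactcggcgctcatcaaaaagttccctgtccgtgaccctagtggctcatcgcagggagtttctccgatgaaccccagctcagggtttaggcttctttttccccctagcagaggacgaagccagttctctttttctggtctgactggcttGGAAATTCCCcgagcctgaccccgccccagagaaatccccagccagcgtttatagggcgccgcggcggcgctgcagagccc
RELA: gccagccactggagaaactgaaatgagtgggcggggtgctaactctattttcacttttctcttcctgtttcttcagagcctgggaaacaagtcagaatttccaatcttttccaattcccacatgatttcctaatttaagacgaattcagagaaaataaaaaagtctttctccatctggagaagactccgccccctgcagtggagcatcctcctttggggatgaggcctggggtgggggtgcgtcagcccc
In NFKB1 the match lay at -49 to -40, counted from the start, and in NFKBIA it lay at -81 to -72 on the opposite strand. Read 5′ to 3′ on its own strand, the matched word was GGGAATTTCC in both genes. For TNFAIP3, TNIP1 and NFKB2 the 30 bases around matches are shown, because these windows lie inside the gene's annotated span: chr6:137867188-137867217 (plus strand), chr5:151081057-151081086 (minus strand) and chr10:102395674-102395703 (plus strand).
TNFAIP3: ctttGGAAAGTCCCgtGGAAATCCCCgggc
TNIP1: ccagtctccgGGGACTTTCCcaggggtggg
NFKB2: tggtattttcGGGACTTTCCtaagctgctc
TNFAIP3 held 2 matches, at -67 to -58 and at -55 to -46, both on the opposite strand. The first of them, the match of TNIP1 and the match of NFKB2 shown were all GGGACTTTCC on their own strand. NFKB2 held 3 matches in 1 window and 2 in another, and its signal was at most 0.38 log2 above scramble of the day. Whether matches go with the differences in signal was not tested. A match is a description of these letters and not a binding site, and the absence of one in RELA says only that the motif is not in these windows.

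**Figure D1:**
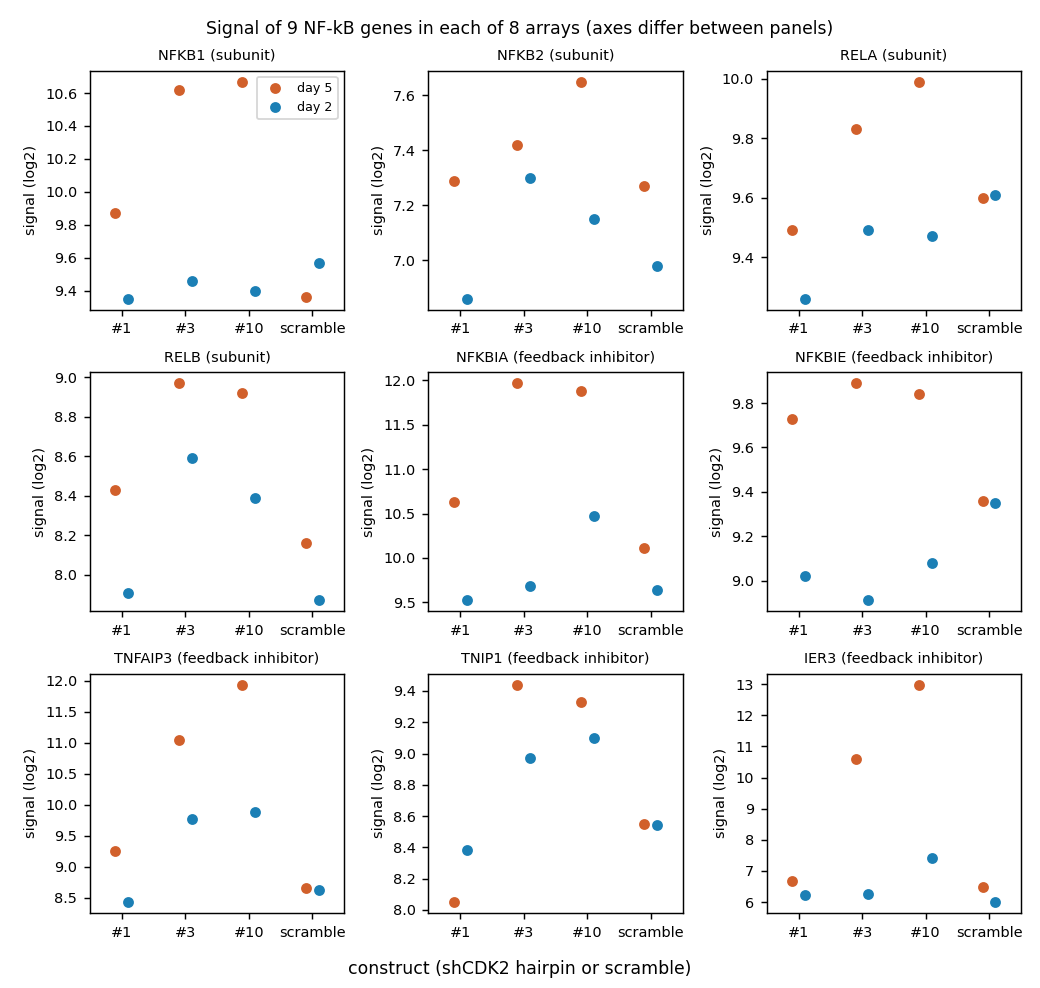
Log2 signal (vertical axis, scaled separately per gene) of the 9 genes in each array, by construct (horizontal axis) and day (colour); a point is 1 array. For IER3 the points of #3 and #10 at day 5 stand at 10.58 and 12.98, with every other array between 6.00 and 7.43.

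Among the subunits, NFKB1 and RELB had the highest differences from scramble at day 5, while NFKB2 and RELA differed little. NFKB1 (chromosome 4, 102501359 to 102617302; locations here are those of RefSeq in GRCh38.p14) encodes p105, the precursor of the DNA-binding p50 subunit. Its signal at day 5 was 9.87 in #1, 10.62 in #3 and 10.67 in #10, against 9.36 in the day 5 array labelled scramble. The day 2 signal was 9.35 in #1, 9.46 in the day 2 array labelled shCDK2 #3 and 9.40 in #10, against 9.57 in scramble. All hairpin arrays lay above scramble at day 5 and below it at day 2. The 3 hairpins averaged 10.39 ± 0.45 at day 5 and 9.41 ± 0.05 at day 2 (SD, n = 3). Against scramble the fold was 2.48 in #10 and 2.41 in #3 at day 5.

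RELB (chromosome 19, 45001464 to 45038192) encodes the Rel protein that pairs with p52 in the non-canonical pathway, and it is itself a target of NF-kB. It had 8.43 in #1, 8.97 in #3 and 8.92 in #10 at day 5, against 8.16 in the day 5 array labelled scramble. Day 2 values were 7.91 in #1, 8.59 in the day 2 array labelled shCDK2 #3 and 8.39 in #10, against 7.87 in scramble. Every hairpin array was above scramble of its day, by 0.04 log2 in #1 at day 2 and by up to 0.80 in #3 at day 5.

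NFKB2 (chromosome 10, 102394110 to 102402529) encodes p100, the precursor of p52. Its signal at day 5 was 7.29 in #1, 7.42 in #3 and 7.65 in #10, against 7.27 in the day 5 array labelled scramble, and at day 2 it was 6.86 in #1, 7.30 in the day 2 array labelled shCDK2 #3 and 7.15 in #10, against 6.98 in scramble. RELA (chromosome 11, 65653601 to 65663857) encodes p65, the main activating subunit. It had 9.49, 9.83 and 9.99 in #1, #3 and #10 at day 5, against 9.60 in the day 5 array labelled scramble. At day 2 it had 9.26 in #1, 9.49 in the day 2 array labelled shCDK2 #3 and 9.47 in #10, against 9.61 in scramble. For both genes the hairpin arrays lay on either side of scramble in at least 1 day, and no hairpin array differed from scramble by more than 0.39 log2. The other 2 probe sets of RELA were dim, with means of 5.61 and 4.85.

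Among the feedback inhibitors, IER3, TNFAIP3 and NFKBIA had the highest differences from scramble, and they were highest in #3 and #10 at day 5. IER3 (chromosome 6, 30743199 to 30744547) encodes an immediate early protein that regulates cell survival and is induced by NF-kB. Its signal at day 5 was 6.68 in #1, 10.58 in #3 and 12.98 in #10, against 6.49 in the day 5 array labelled scramble. At day 2 it was 6.24 in #1, 6.25 in the day 2 array labelled shCDK2 #3 and 7.43 in #10, against 6.00 in scramble. The gene was therefore under 7 log2 in 5 of 8 arrays, and only #3 and #10 at day 5 stood above 8. Its fold over scramble was 90.1 in #10 and 17.0 in #3 at day 5, 2.69 in #10 at day 2, and under 1.2 in #1 on both days. IER3 ranked 3 from the highest of 12845 genes by difference from scramble in #10 at day 5 and 13 in #3 at day 5.

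TNFAIP3 (chromosome 6, 137866349 to 137883312) encodes A20, a ubiquitin-editing enzyme that ends signalling from the TNF receptor and Toll-like receptors. It had 9.25 in #1, 11.04 in #3 and 11.94 in #10 at day 5, against 8.66 in the day 5 array labelled scramble. The day 2 signals were 8.43 in #1, 9.77 in the day 2 array labelled shCDK2 #3 and 9.89 in #10, against 8.62 in scramble. It was the only one of the 9 genes more than 1 log2 above scramble on both days in both #3 and #10, with folds of 9.71 and 2.41 in #10 at day 5 and day 2. In #3 the folds were 5.20 at day 5 and 2.21 in the day 2 array labelled shCDK2 #3. A further probe set of the gene gave 2.54 log2 in #10 and 2.18 in #3 at day 5, and 0.78 in #10 and 0.99 in the day 2 array labelled shCDK2 #3.

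NFKBIA (chromosome 14, 35401513 to 35404749) encodes IkB-alpha, the inhibitor that binds NF-kB dimers and is remade within each round of signalling. Its signal at day 5 was 10.63 in #1, 11.97 in #3 and 11.88 in #10, against 10.11 in the day 5 array labelled scramble. At day 2 it was 9.52 in #1, 9.68 in the day 2 array labelled shCDK2 #3 and 10.47 in #10, against 9.64 in scramble. At day 5 all hairpin arrays were above scramble, by 3.63-fold in #3 and 3.39-fold in #10. At day 2 only #10 was more than 0.1 log2 above it, by 1.77-fold. The gene's 3 probe sets gave 1.76 to 1.80 log2 in #10 at day 5.

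NFKBIE (chromosome 6, 44258166 to 44265551) encodes IkB-epsilon, a slower-acting relative of IkB-alpha. It had 9.73, 9.89 and 9.84 in #1, #3 and #10 at day 5, against 9.36 in the day 5 array labelled scramble. Its signal at day 2 was 9.02 in #1, 8.91 in the day 2 array labelled shCDK2 #3 and 9.08 in #10, against 9.35 in scramble. The hairpins were close to each other on both days (SD 0.09 at day 5 and 0.08 at day 2, n = 3), above scramble at day 5 and below it at day 2.

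TNIP1 (chromosome 5, 151029943 to 151087685) encodes ABIN-1, a ubiquitin-binding partner of A20. It had 8.05 in #1, 9.44 in #3 and 9.33 in #10 at day 5, against 8.55 in the day 5 array labelled scramble. Its day 2 signal was 8.38 in #1, 8.97 in the day 2 array labelled shCDK2 #3 and 9.10 in #10, against 8.54 in scramble. It was above scramble in #3 and #10 and below it in #1, by 0.50 log2 at day 5. Of its 8 probe sets, the next brightest gave 0.64 in #10 at day 5 and 0.54 at day 2, but in #1 it gave -0.14 at day 5 and 0.06 at day 2, and 6 of the 8 were above scramble in #1 at day 2, so the direction in #1 differed between probe sets. Some of the dimmer TNIP1 probe sets were below scramble at day 5 in #3 and #10 too, down to -0.49 and -0.15, while the others were above it. The probe sets read for TNFAIP3, IER3, RELA and NFKBIA carry an array suffix for probes that can also bind related sequences.

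**Figure D2:**
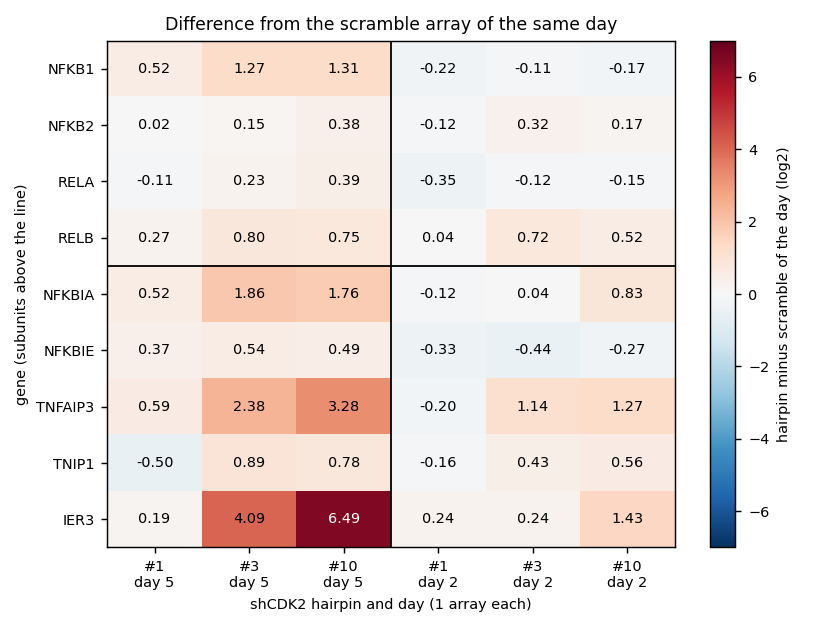
Difference from the scramble array of the same day (log2, number and colour) for each gene (rows, subunits above the line) in each hairpin array (columns), day 5 on the left and day 2 on the right. The darkest cells are IER3 in #10 (6.49) and #3 (4.09) and TNFAIP3 in #10 (3.28), all at day 5.

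Counted array by array, the 9 genes stood above scramble most often in #3 and #10 at day 5. The genes were chosen with earlier results of these data known, so the shares over all genes beside the counts are a description and not a test. All 9 were higher in #3 at day 5, where 43.9% of all tested genes were, with a median difference of 0.89 log2 against -0.09 over all genes. All 9 were also higher in #10 at day 5, where 37.8% of all genes were, with a median of 0.78 against -0.11. In #1 at day 5 there were 7 higher, where 43.3% of all genes were, with a median of 0.27 against -0.03. At day 2 there were 6 in #10, where 46.7% of all genes were (median 0.52 against -0.03), and 6 in the day 2 array labelled shCDK2 #3, where 53.9% were (0.24 against 0.03). In #1 at day 2 there were 2, where 51.5% of all genes were, with a median of -0.16 against 0.01. The inhibitors' medians at day 5 were 1.86 in #3 and 1.76 in #10, and the subunits' were 0.52 and 0.57.

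More than 1 log2 above scramble at day 5 were 4 of the 9 genes in #10, where 5.57% of all tested genes were, and 4 in #3, where 6.2% were. In each hairpin these were NFKB1, NFKBIA, TNFAIP3 and IER3. At day 2 there were 2 in #10 (TNFAIP3 and IER3), where 6.8% of all genes were, and 1 in the day 2 array labelled shCDK2 #3 (TNFAIP3), where 1% were. In #1 there was none at day 5, where 0.319% of all genes were, and none at day 2, where 0.304% were. These comparisons set 1 array against 1 and share the scramble array of their day. All 3 hairpins were above the day 5 array labelled scramble for 7 of the 9 genes, all but RELA and TNIP1, where 16% of all genes were. At day 2 this held for RELB and IER3, 2 of 9, where 25.6% of all genes were.

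Taking the hairpins as repeats, no gene passed the knockdown comparison of either day. In limma, with p-values adjusted by Benjamini-Hochberg over all tested genes, 0 of 9 members and 0% of all genes were called at day 5, and 3 members and 171 genes had an unadjusted p under 0.05. At day 5 the estimate was 3.59 log2 for IER3 (SE 2.00), 2.08 for TNFAIP3 (SE 0.99), 1.38 for NFKBIA (SE 0.58) and 1.03 for NFKB1 (SE 0.33). All of these had an adjusted p of 0.913. In #1 at day 5 TNFAIP3, NFKBIA and NFKB1 were above scramble by 0.59, 0.52 and 0.52 log2, less than in #3 and #10, and ranked 211, 284 and 288 from the highest of 12845 genes in that array, while TNIP1 was at -0.50. The intervals over the 3 hairpins were wide: for IER3 the 95% confidence interval ran from -1.11 to 8.30, and for NFKB1, where the hairpins were closer, from 0.26 to 1.80. At day 2 the call was again 0 of 9 and 0% of all genes, with 0 members and 442 genes at an unadjusted p under 0.05. The estimates at day 2 ran from -0.34 for NFKBIE to 0.74 for TNFAIP3.

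Set against scramble over both days, with construct and day as terms and the 2 days as repeats, TNFAIP3 was the member that passed, in hairpin #10. It rose by 2.27 log2 (SE 0.41, 95% confidence interval 1.32 to 3.23, limma adjusted p = 0.0456), which is 4.82-fold. This was 1 of 9 members, where 2.01% of all genes were called, and 5 members and 2599 genes had an unadjusted p under 0.05. The call ended when each array was centred on its median (adjusted p = 0.0724), when all probe sets of a gene were averaged (adjusted p = 0.053), and without scramble at day 2, the day 5 array labelled scramble or #10 at day 5. Without those arrays the estimates were 2.95, 1.60 and 1.61 log2.

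The other inhibitors did not pass in #10. IER3 had the highest estimate, 3.96 log2 (SE 1.19, 95% confidence interval 1.19 to 6.73, adjusted p = 0.123). It was 5.86 log2 without #10 at day 2, which leaves #10 with its day 5 array alone. Against scramble of the day, IER3 in #10 was 6.49 log2 higher at day 5 and 1.43 at day 2. NFKBIA was at 1.30 (SE 0.38, adjusted p = 0.116). TNIP1 was at 0.67 (SE 0.22, adjusted p = 0.151) and NFKBIE at 0.11 (SE 0.25, adjusted p = 0.852). Among the subunits RELB was at 0.64 (SE 0.18, adjusted p = 0.103) and NFKB1 at 0.57 (SE 0.35, adjusted p = 0.431), with NFKB2 at 0.27 and RELA at 0.12.

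In hairpin #3, 0 of 9 members were called, where 0.0311% of all genes were, and 4 members and 1216 genes had an unadjusted p under 0.05. TNFAIP3 was at 1.76 log2 (SE 0.41, 95% confidence interval 0.80 to 2.72, adjusted p = 0.264) and RELB at 0.76 (SE 0.18, adjusted p = 0.264). These values rest in part on the day 2 array labelled shCDK2 #3. In hairpin #1, 0 of 9 members and 0% of all genes were called, with 0 members and 171 genes at an unadjusted p under 0.05. There TNFAIP3 was at 0.20 (95% confidence interval -0.76 to 1.15) and IER3 at 0.22 (95% confidence interval -2.55 to 2.98).

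**Figure D3:**
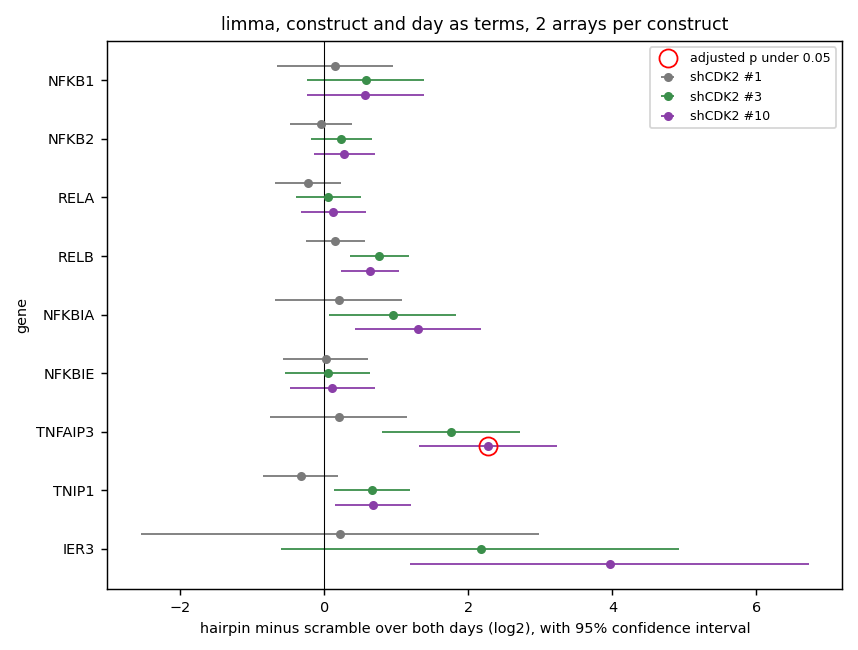
Fitted difference from scramble over both days (horizontal axis, log2) for each gene and hairpin, with 95% confidence intervals from limma (2 arrays per construct). The red ring marks TNFAIP3 in #10 at 2.27, the value with an adjusted p under 0.05; the widest intervals are those of IER3.

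The hairpins were also set against each other, which leaves the scramble arrays out of the difference. Between #10 and #1, TNFAIP3 differed by 2.08 log2 (SE 0.41, 95% confidence interval 1.12 to 3.04, adjusted p = 0.0827) and TNIP1 by 1.00 (SE 0.22, 95% confidence interval 0.48 to 1.53, adjusted p = 0.103), higher in #10 on both days. Of the members 0 of 9 were called, where 0.327% of all genes were, and 5 members and 2035 genes had an unadjusted p under 0.05. Without #10 at day 2 TNFAIP3 was at 2.75 and IER3 at 5.64, which rests on the day 5 array of #10 alone. In #10 the TNFAIP3 signal was 11.94 at day 5 and 9.89 at day 2, and that of IER3 was 12.98 and 7.43. These fits leave 1 array of a construct, so only the estimates are given here.

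Between #10 and #3 the call was 0 of 9 and 0% of all genes, with 0 members and 740 genes at an unadjusted p under 0.05. TNFAIP3 differed by 0.51 there (95% confidence interval -0.44 to 1.47). Between #3 and #1 it was again 0 of 9 and 0% of all genes, with 3 members and 1541 genes at an unadjusted p under 0.05, and TNFAIP3 differed by 1.57 (95% confidence interval 0.61 to 2.52, adjusted p = 0.235).

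Between the days, every member's signal was higher at day 5 in every hairpin, except for TNIP1 in #1, and in scramble the difference ran from -0.22 for NFKB1 to 0.49 for IER3. The counts were 8 of 9 in #1, 9 of 9 in #3 and 9 of 9 in #10, where 51.9%, 42.3% and 51.3% of all genes were higher, and 7 of 9 in scramble, all 5 inhibitors among them, where 56.0% were. For NFKB1 the day 5 minus day 2 difference was 0.52 in #1, 1.17 in #3 and 1.26 in #10, against -0.22 in scramble. For NFKBIE it was 0.71, 0.98 and 0.77 in #1, #3 and #10, against 0.01 in scramble. For both genes every hairpin's difference was above that of scramble. The same held for RELA, RELB, NFKBIA and TNFAIP3, but the share of all genes with this order was not computed.

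TNFAIP3 differed by 0.82 in #1, 1.27 in #3 and 2.04 in #10, against 0.03 in scramble. NFKBIA differed by 1.12 in #1, 2.29 in #3 and 1.41 in #10, against 0.47 in scramble. IER3 differed by 0.44 in #1, 4.33 in #3 and 5.55 in #10, against 0.49 in scramble, so that in #1 its difference was close to that of scramble. The remaining subunits had hairpin differences of 0.13 to 0.53, and TNIP1 had -0.32 in #1.

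All 3 hairpin arrays of day 5 lay above all 3 of day 2 for NFKB1, RELA, NFKBIA and NFKBIE, 4 of 9 members, where 2.79% of all genes did. RELA met this narrowly, with 9.4937 in #1 at day 5 against 9.4924 in the day 2 array labelled shCDK2 #3. Its other 2 probe sets, which were dim, did not separate the days. In limma, however, 0 of 9 members and 0% of all genes were called, with 4 members and 260 genes at an unadjusted p under 0.05. The estimates were 0.82 for NFKBIE (SE 0.14, 95% confidence interval 0.50 to 1.14), 0.98 for NFKB1 (SE 0.23, 95% confidence interval 0.44 to 1.53) and 1.61 for NFKBIA (SE 0.41, 95% confidence interval 0.64 to 2.57). The difference between the knockdown changes of day 5 and day 2 was likewise called for 0 of 9 members and 0% of all genes, with 2 members and 164 genes at an unadjusted p under 0.05. Each day has 1 scramble array, so the sign of a knockdown change on a day rests on that array.

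**Figure D4:**
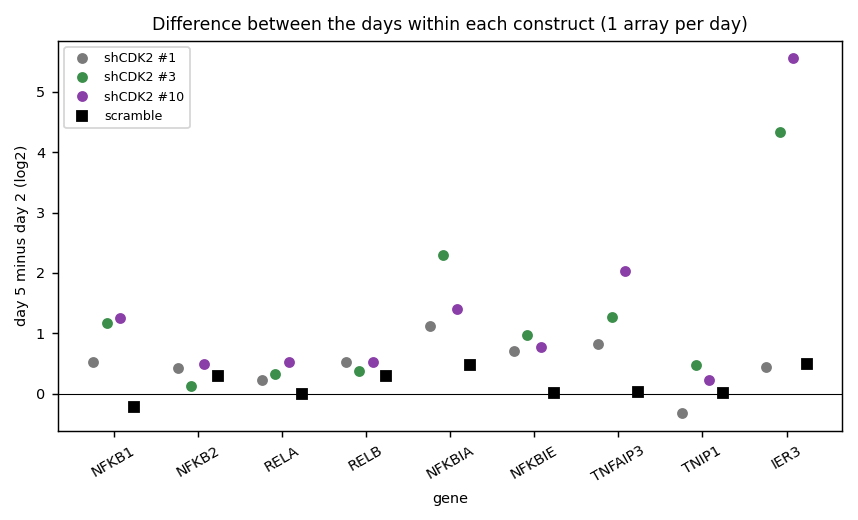
Day 5 minus day 2 (vertical axis, log2) for each gene (horizontal axis) within each construct; a point is the difference of 2 arrays, circles for hairpins and squares for scramble. IER3 stands at 5.55 in #10 and 4.33 in #3, against 0.44 in #1 and 0.49 in scramble.

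The other genes of the pathway were followed in lists of receptors and adaptors, IKK and upstream kinases, further Rel, IkB and deubiquitinase genes, and further target genes. TRAF1 stands in the first and the last of these lists and NFKBIZ in the last 2, so counts overlap. Of the receptors and adaptors 21 of 30 were tested, and in hairpin #10 1 was called higher and 0 lower, where 2.01% of all genes were called in either direction. A positive estimate was found for 14 of 21, with a median of 0.26 log2, against 38.7% of all tested genes and a median of -0.09. The one called was IL1RAP, the co-receptor for IL-1. Its signal in #10 was 11.06 at day 5 and 10.34 at day 2, against 8.90 in the day 5 array labelled scramble and 8.71 in scramble at day 2, a rise of 1.89 log2 (SE 0.32, limma adjusted p = 0.0413). This call ended under median centring (adjusted p = 0.0692), with the mean of probe sets (0.68 log2, adjusted p = 0.0784), and without scramble at day 2 (0.201), the day 5 array labelled scramble (0.212), #10 at day 2 (0.0613) or #10 at day 5 (0.0665). TLR1, a partner of TLR2, was at 2.29 (adjusted p = 0.0804), and the lowest estimates were those of IRAK1, a kinase below the IL-1 receptor, at -0.72 (adjusted p = 0.123) and CARD9, an adaptor, at -0.55 (adjusted p = 0.371).

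The kinases that release NF-kB had a median near zero. Of 11 listed 10 were tested, and 0 were called in #10, where 2.01% of all genes were. The median was 0.03, and 5 of 10 had a positive estimate, against 38.7% of all genes. An unadjusted p under 0.05 in limma was found for 2 of the 10, and for 2599 of 12845 genes. TAB2, an adaptor of the kinase TAK1, was at 0.81 (adjusted p = 0.16) and IKBKB, the catalytic IKK-beta, at 0.67 (adjusted p = 0.425), while CHUK, which encodes IKK-alpha, was at -0.58 (adjusted p = 0.17) and IKBKG, the scaffold NEMO, at -0.29 (adjusted p = 0.433).

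Of the other Rel, IkB and deubiquitinase genes 17 of 18 were tested, and 0 were called in #10, where 2.01% of all genes were. The median was 0.06, and 11 of 17 had a positive estimate, against 38.7% of all genes. An unadjusted p under 0.05 in limma was found for 7 of the 17, and for 2599 of 12845 genes. NFKBIZ, a nuclear IkB protein that acts as a co-activator, was at 2.76 (adjusted p = 0.0868). Its signal in #10 was 9.82 at day 5 and 8.44 at day 2, against 6.44 in the day 5 array labelled scramble and 6.30 in scramble at day 2, and in #3 it was 9.65 at day 5 and 6.50 in the day 2 array labelled shCDK2 #3. CYLD, a deubiquitinase that restrains the pathway, was at 1.61 (adjusted p = 0.0905). COMMD1, which promotes the loss of nuclear RELA, was at -0.60 (adjusted p = 0.166), and NFKBIB, which encodes IkB-beta, was at -0.14 (adjusted p = 0.784).

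Of the further target genes 19 of 22 were tested, and 0 were called in #10, where 2.01% of all genes were. The median was 0.87, and 15 of 19 had a positive estimate, against 38.7% of all genes. An unadjusted p under 0.05 in limma was found for 11 of the 19, and for 2599 of 12845 genes. In #3 the positive estimates were 13 of 19 with a median of 0.46, where 40.9% of all genes had one, and in #1 they were 14 of 19 with a median of 0.10, where 46.3% did. The cytokine gene IL1B was at 4.85 in #10 (adjusted p = 0.0771) and the chemokine gene CCL3 at 4.65 (adjusted p = 0.051). Leaving out a #1 or #3 array cannot change these estimates, which come from the #10 and scramble arrays alone. TNF, which encodes a main activator of the pathway, was at -0.28 (adjusted p = 0.673), with 12.06 in #10 at day 5 against 11.86 in the day 5 array labelled scramble, and 10.99 in #10 at day 2 against 11.74 in scramble. CFLAR, an inhibitor of caspase-8, was at -0.24 (adjusted p = 0.817), and at 0.35 with the mean of its probe sets. None of the genes of these 4 lists was called in limma in hairpins #3 or #1, where 0.0311% and 0% of all genes were. In #3, 4 receptor, 3 Rel or IkB and 3 target genes had an unadjusted p under 0.05, NFKBIZ counted in both of its lists, as did 1216 of 12845 genes. In #1 there were 0 in these lists and 171 among all genes.

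**Figure D5:**
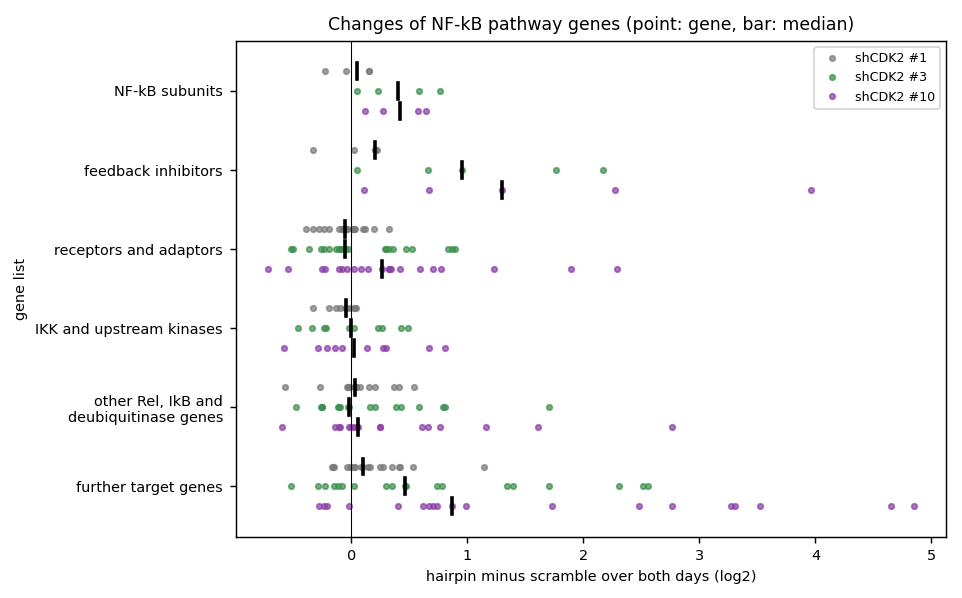
Fitted difference from scramble over both days (horizontal axis, log2) of each tested gene (points) of the 6 groups of NF-kB pathway genes, by hairpin (colour), with the median as a bar. Feedback inhibitors (median 1.30 in #10) and further targets (0.87) lie farther to the right than the kinases (0.03).

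Across the 8 arrays the members varied together to different degrees. Over the 36 pairs of members Pearson's r ran from 0.24 for NFKBIE with TNIP1 to 0.94 for TNFAIP3 with IER3, with a median of 0.82, on 8 arrays that share constructs and days. The tested genes with the pattern most like the mean of the subunits were CHST7 (r = 0.972), CLIC4 (0.971), ARFGAP1 (0.964), IL4I1 (0.956) and C3 (0.956). Those most like the mean of the inhibitors were SRC (r = 0.992), PIM1 (0.991), EBI3 (0.990), TNFRSF4 (0.990) and STAT3 (0.989). These are the highest of all tested genes that are not members, and their r is a description. Members were centred on their own means but not scaled before averaging. IER3, which spanned 6.98 log2 against 0.98 for NFKBIE, therefore weighed most in the inhibitors' mean. PIM1, which encodes a survival kinase, had 10.90 in #3 and 11.40 in #10 at day 5, against 8.75 in the day 5 array labelled scramble. EBI3, a subunit of the cytokine IL-27, had 10.73 in #3 and 11.28 in #10 at day 5, against 7.75 in the day 5 array labelled scramble. ARFGAP1 spanned only 9.34 to 9.51 over all arrays, so a high r here does not mean a large difference.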

How the data were processed

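RNA of NB4 cells was measured on 8 Affymetrix arrays. The authors deposited a file of 49395 probe sets, whose values were taken as log2 signals from their range; the submitters' processing notes name Partek, and the sources used here give neither the normalization nor the genome build. Values were used as deposited. Of the probe sets 44994 had 1 gene, and 44967 of these were updated through RefSeq. Each gene was read on its brightest such probe set, and tests covered the 70.8% of genes whose mean exceeded 5.83 log2, the 40th percentile of the probe sets.

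Tests used limma 3.58.1 in R 4.3.3 (package data.table, version 1.17.8), two-sided, with Benjamini-Hochberg adjustment over all tested genes and a threshold of 0.05, and were tested on simulated data. Knockdown per day and day within hairpins came from group means (4 residual degrees of freedom), with the lone scramble array of a day assumed to vary like the hairpins. Hairpin comparisons came from a model of construct plus day (3 residual degrees of freedom), in which the 2 days stood in as repeats of a construct.

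Members and lists were chosen with earlier results of these data known. Named were the members, CDK2, listed pathway genes that were called or had the 2 highest or 2 lowest changes in hairpin #10, and the 5 genes most correlated with the subunits' and with the inhibitors' mean. Alternatives were quantile normalization, median centring, the mean of probe sets, no filter, an intensity trend, a replicate block and leaving out each array.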

Additional observations from a re-analysis of the deposited data

Results flagged for a closer look

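For NFKB1 and NFKBIE all 3 hairpins lay on opposite sides of the scramble array on the 2 days, above it at day 5 and below it at day 2. How many of all tested genes did so was not computed. The knockdown change of NFKB1 was 1.20 log2 higher at day 5 than at day 2 (SE 0.46, 95% confidence interval 0.11 to 2.29), and that of NFKBIE 0.81 higher (SE 0.27, 95% confidence interval 0.17 to 1.45). Tested as an interaction in limma over all genes, both had an adjusted p of 1.00. The scramble signal of NFKB1 was 9.36 in the day 5 array labelled scramble and 9.57 in scramble at day 2, and that of NFKBIE was 9.36 and 9.35, so the sign on each day rests on 1 scramble array.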

How the results depend on the processing

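For the members, 62 single-gene results were followed under 793 alternative values. Of these, 760 kept their direction and side of the threshold, 5 fell short of it, 7 newly passed it and 21 changed sign. The cause was not tested. Some alternatives could not move an estimate, such as leaving out an array of a construct outside the comparison, so the 760 are no measure of stability. For hairpin #10 against scramble 1 member was called, 0 under median centring and 0 under the mean of probe sets, and 0 to 2 on leaving out each array in turn. It was 0 without scramble at day 2 (TNFAIP3 adjusted p = 0.163), without the day 5 array labelled scramble (0.211) or without #10 at day 5 (0.0742), and 2 without either #3 array or without #10 at day 2. TNFAIP3 had an adjusted p of 0.0384 under quantile normalization, 0.0452 without a filter and 0.0381 with an intensity trend. Over all genes the count for #10 was 258, with 82 under median centring and 0 to 960 on leaving out arrays. For #10 against #1, 0 members were called, and 0 to 2 on leaving out arrays, with 42 genes in all against 612 without either #3 array and 154 without #10 at day 2.

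Small estimates changed sign. With the mean of probe sets RELA was at -0.05 for the knockdown at day 5, -0.05 in #10 and -0.00 in #3, and under quantile normalization NFKBIE was at -0.03 for #10 against #1. On leaving out arrays, #10 against scramble ran from -0.03 to 1.17 for NFKB1, -0.07 to 0.31 for RELA and -0.30 to 0.51 for NFKBIE. In #3 the ranges were -0.02 to 1.18 for NFKB1, -0.13 to 0.24 for RELA and -0.35 to 0.46 for NFKBIE, and in #1 they were -0.48 to 0.87 for TNFAIP3 and -1.29 to 1.73 for IER3. Others were -0.04 to 0.43 for NFKBIA at day 2, -0.13 to 0.57 for TNIP1 between the days, -0.01 to 0.19 for NFKBIE between #10 and #1, and -0.15 to 1.18 for TNFAIP3 between #10 and #3.

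The same alternatives for the 16 named pathway genes and CD3D in #10 were added after seeing the data. Of 221 values 184 kept direction and side of the threshold, 8 fell short of it, 24 newly passed it and 5 changed sign. CFLAR was at 0.35 with the mean of probe sets. On leaving out arrays CFLAR ran from -1.18 to 0.70, above 0 without scramble at day 2 or without #10 at day 2. TNF ran from -0.73 to 0.17, above 0 without scramble at day 2, and NFKBIB from -0.39 to 0.12, above 0 without the day 5 array labelled scramble.

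Deviations of the same hairpin on the 2 days correlated at 0.72 for #1, -0.23 for #3 and 0.43 for #10. Between different hairpins r ran from -0.75 to 0.57, the highest for #10 at day 2 with #3 at day 5. Comparisons between the days therefore did not take the numbers as pairs. Comparisons of single constructs did take the 2 days of a number as repeats, so they rest on those labels. With the hairpin number as a replicate block 0 members were called between the days or for the difference between days, and NFKB1 between the days had an adjusted p of 0.999. Median centring set the median of all genes for the difference between days at 0.066, against -0.04 as deposited. The knockdown of a day could not be fitted without that day's scramble array. Each construct and day had 1 array, signal over background was not given, and small differences were not detectable at this number of arrays.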
